A study of Mus musculus with 25 samples.

Results

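The repeat copies described here were those of the ERV1 superfamily, the class I endogenous retroviruses of the mouse genome. Members were taken from the repeat rows of the read count table whose class field reads LTR/ERV1. There were 33683 such copies among 1755056 repeat copies of all classes, 25834 of them on the 19 autosomes. The autosomal copies fell into 102 families of 1092 repeat families in all, and their reads were summed by family. Of these families, 67 held a mean of at least 10 reads per library and were tested, comprising 54 LTR families and 13 internal families. The other 35 families had means of at most 9.28 reads. The tested families held 99.8% of the ERV1 reads.

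Class I endogenous retroviruses are remnants of gammaretrovirus-like infections of the germline. A complete element carries an internal part, with the gag, pol and sometimes env genes, between a pair of long terminal repeats (LTRs) that hold its promoter, and many copies are solitary LTRs left by recombination. In the mouse the superfamily includes the VL30 elements (the internal families MMVL30-int and RLTR6-int and the LTR family RLTR6_Mm), the GLN elements (RLTR1B, RLTR1C and MMERGLN), the MuRRS elements (the LTRIS LTRs and MuRRS-int), the murine leukaemia virus-related RLTR4 families and the MURVY elements. Many endogenous retroviruses are bound by KRAB zinc finger proteins, which recruit TRIM28 and the H3K9 methyltransferase SETDB1. G9a (encoded by Ehmt2) and its partner GLP (Ehmt1) methylate H3K9 to the mono- and dimethylated states, and KDM3A and KDM4D remove methyl groups from H3K9.

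RNA was measured in pools of 5 to 10 two-cell embryos collected 28 to 29 h after insemination or activation. The 25 libraries formed 11 groups. In vitro fertilisation (IVF, n = 4) joined DBA/2 sperm with B6N oocytes. Somatic cell nuclear transfer (SCNT) placed the nuclei of BDF1 cumulus cells in BDF1 oocytes. The paper states that IVF embryos were of both sexes and that all SCNT embryos were female. It describes the IVF embryos as having a BDF1 background, which the cumulus donors also had, whereas the oocytes were B6N in IVF and BDF1 in SCNT. Oocyte strain, sex and method therefore cannot be told apart in any comparison with IVF. Control SCNT embryos (n = 2) were made with cytochalasin B and received no mRNA, and their counterparts were injected with 1500 ng/µL Kdm3a mRNA (n = 2) or Kdm4d mRNA (n = 2). A second set of SCNT embryos was made with latrunculin A (LatA), an inhibitor of actin polymerisation. It comprised LatA controls (n = 2) and embryos given 25 nM trichostatin A (TSA), a histone deacetylase inhibitor, for 8 h (n = 2), the G9a/GLP inhibitors RK-701 (n = 3) or A366 (n = 2) at 1 µM for 24 h, or TSA with RK-701, A366 or UNC0638 (n = 2 each) at the same doses and times. UNC0638, another G9a/GLP inhibitor, had no group without TSA. The labels do not say that replicate pools came from separate collections, so p-values measure the spread between these libraries, which may be technical.

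Reads on genes numbered 6662727 to 21188688 per library, with a median of 13994840, and reads on autosomal ERV1 copies numbered 11424 to 47020, with a median of 24844. ERV1 supplied 1.559% of repeat reads in the median library. Levels below are in CPM, the reads on a member for every 1000000 gene reads, and gene reads were scaled by TMM factors between 0.883 and 1.16. Differences were tested with edgeR's quasi-likelihood test and Benjamini-Hochberg adjustment. A family was called at an adjusted p below 0.05 over all 669 families tested, and a copy or gene when its fold change also passed 2. Kdm3a stood at 3465 and 3116 CPM in the Kdm3a-injected libraries and Kdm4d at 18542 and 12540 in the Kdm4d-injected libraries, so both labels held. Summed levels of an oocyte marker list were 1190 to 1378 in IVF and 456 to 612 in both sets of SCNT controls, and those of a two-cell marker list were 968 to 1230 and 392 to 693. Mos of the oocyte list ran the other way, with means of 2.57 in IVF, 3.77 in control SCNT and 6.21 in LatA controls. Zfp352 of the two-cell list was highest in control SCNT, at 447 against 303 in IVF and 236 in LatA controls. The cumulus marker list summed to 43.9 to 101 over all libraries. Within it, Amhr2 had means of 30.3 in IVF, 30.3 in control SCNT and 27.7 in LatA controls. In the same order, Kitl (10.2, 24.4 and 18.0) and Fst (0.0162, 5.90 and 5.62) were higher in both controls. Cyp19a1 was lower in both (4.13, 0.735 and 0.791). The part of these differences in the ERV1 values was not tested. In pooled embryos, fewer cells with a transcript and less transcript per cell cannot be told apart.

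Members of 1 ERV1 family, the LTR RLTR48B, lay in the promoter windows of KRAB zinc finger genes on chromosome 7 whose levels are described at the end. The 250 bases before the start of 3 of them are shown 5′ to 3′ along the gene, as given by RefSeq for GRCm38.p6 (the assembly also called mm10), with the bases annotated as RLTR48B in capitals. EU599041 covers chr7:43213789-43214038 on the plus strand, Zfp936 chr7:43177340-43177589 on the plus strand, before a RefSeq start that lies inside the gene as counted (chr7:43114229-43192109), and Zfp977 chr7:42592546-42592795 on the minus strand.
EU599041: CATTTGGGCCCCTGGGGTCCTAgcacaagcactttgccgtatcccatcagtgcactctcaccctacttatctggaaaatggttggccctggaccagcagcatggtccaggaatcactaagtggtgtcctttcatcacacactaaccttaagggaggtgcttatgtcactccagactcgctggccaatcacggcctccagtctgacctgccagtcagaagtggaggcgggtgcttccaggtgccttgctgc
Zfp936: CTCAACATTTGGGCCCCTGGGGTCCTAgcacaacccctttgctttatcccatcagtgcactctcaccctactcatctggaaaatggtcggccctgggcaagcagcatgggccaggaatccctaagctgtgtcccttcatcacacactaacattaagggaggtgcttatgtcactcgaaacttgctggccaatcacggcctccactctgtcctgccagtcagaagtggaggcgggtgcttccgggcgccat
Zfp977: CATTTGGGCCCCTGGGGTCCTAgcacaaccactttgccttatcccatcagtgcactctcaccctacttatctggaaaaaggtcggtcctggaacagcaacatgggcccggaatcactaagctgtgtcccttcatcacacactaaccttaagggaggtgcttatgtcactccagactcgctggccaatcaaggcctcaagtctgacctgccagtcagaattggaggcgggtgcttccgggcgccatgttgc
In each window the LTR part ended in the same 22 bases, CATTTGGGCCCCTGGGGTCCTA. This run, searched on both strands, stood in 4 of 31396 autosomal promoter windows of 300 bases (0.0127%), the fourth being that of Zfp976. The full windows of these 4 genes were 80.4 to 91.7% identical to each other.

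The summed ERV1 level did not differ detectably between IVF and untreated SCNT embryos. Per 1000 gene reads it was 1.94 ± 0.126 (SD, n = 4) in IVF and 1.91 ± 0.179 (n = 4) over the control SCNT and LatA control libraries. The difference of -0.0268 had p = 0.83 in a two-sided exact permutation test, whose smallest possible p is 0.0286. Without TMM factors it was 0.284 (exact permutation p = 0.114), and per 1000 reads on all repeats ERV1 was lower in SCNT, at 14.0 against 16.9 (exact permutation p = 0.0286, the smallest possible). Among the treated groups the mean level was lowest with TSA and RK-701 (1.59 ± 0.0448) and with TSA and A366 (1.59 ± 0.0121). It was 2.02 ± 0.0160 with TSA and UNC0638, 1.74 ± 0.111 with RK-701, 1.97 ± 0.164 with A366 and 1.97 ± 0.240 with TSA. The Kdm3a libraries differed from each other (1.92 and 2.46), whereas Kdm4d gave 1.78 ± 0.0454. No exact test of 2 libraries against 2 can pass below 0.333, and the totals of the treated groups, RK-701 with its 3 libraries included, were not tested.

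**Figure D1:**
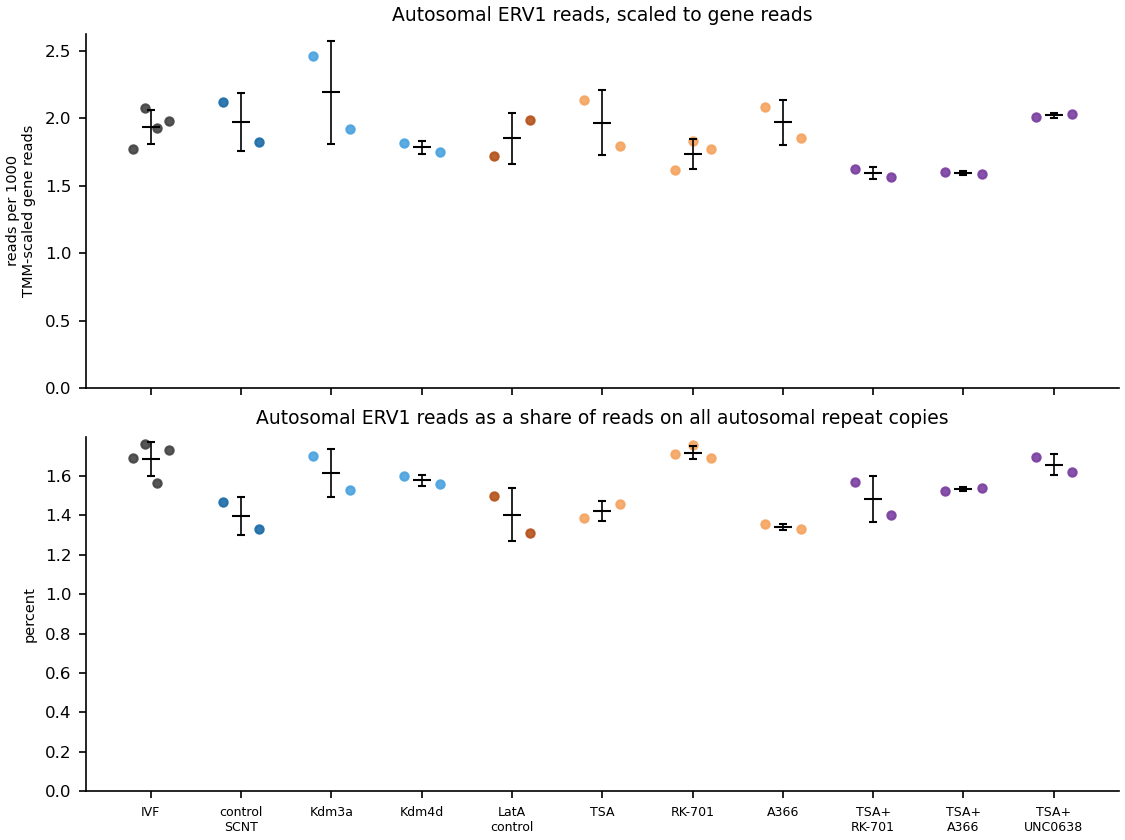
Autosomal ERV1 reads per 1000 TMM-scaled gene reads (top) and as a percentage of reads on all autosomal repeat copies (bottom) in each of the 25 libraries, by group, with points for libraries and bars for mean ± SD. IVF (1.94 ± 0.126) and the untreated SCNT controls overlapped, and the groups given TSA with RK-701 or A366 had the lowest means (1.59).

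ERV1 reads were spread unevenly over the members. By name, VL30 families took 20.6% of ERV1 reads, MuRRS families 15.5%, GLN families 14.5%, the MLV-related families named RLTR4 2.16% and MURVY families 0.99%, with 46.0% in families outside these groups, MuLV-int among them. MMVL30-int alone took 10.8% and RLTR14 took 7.57%. The 10 families with most reads held 51.6% of them, and the 100 copies with most reads held 45.6%. At least 1 read fell in 13744 copies (53.2%). Copies inside gene spans made up 26.5% of copies and 25.6% of reads. No copy counted here overlapped an annotated exon, so any ERV1 copies in exons lie outside these results. In 10 families a single copy held more than 50% of the reads. For some families, but not all, the copy that carried most of the change is therefore given below. Counting did not use strand, so a read in a gene span may belong to either strand.

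**Figure D2:**
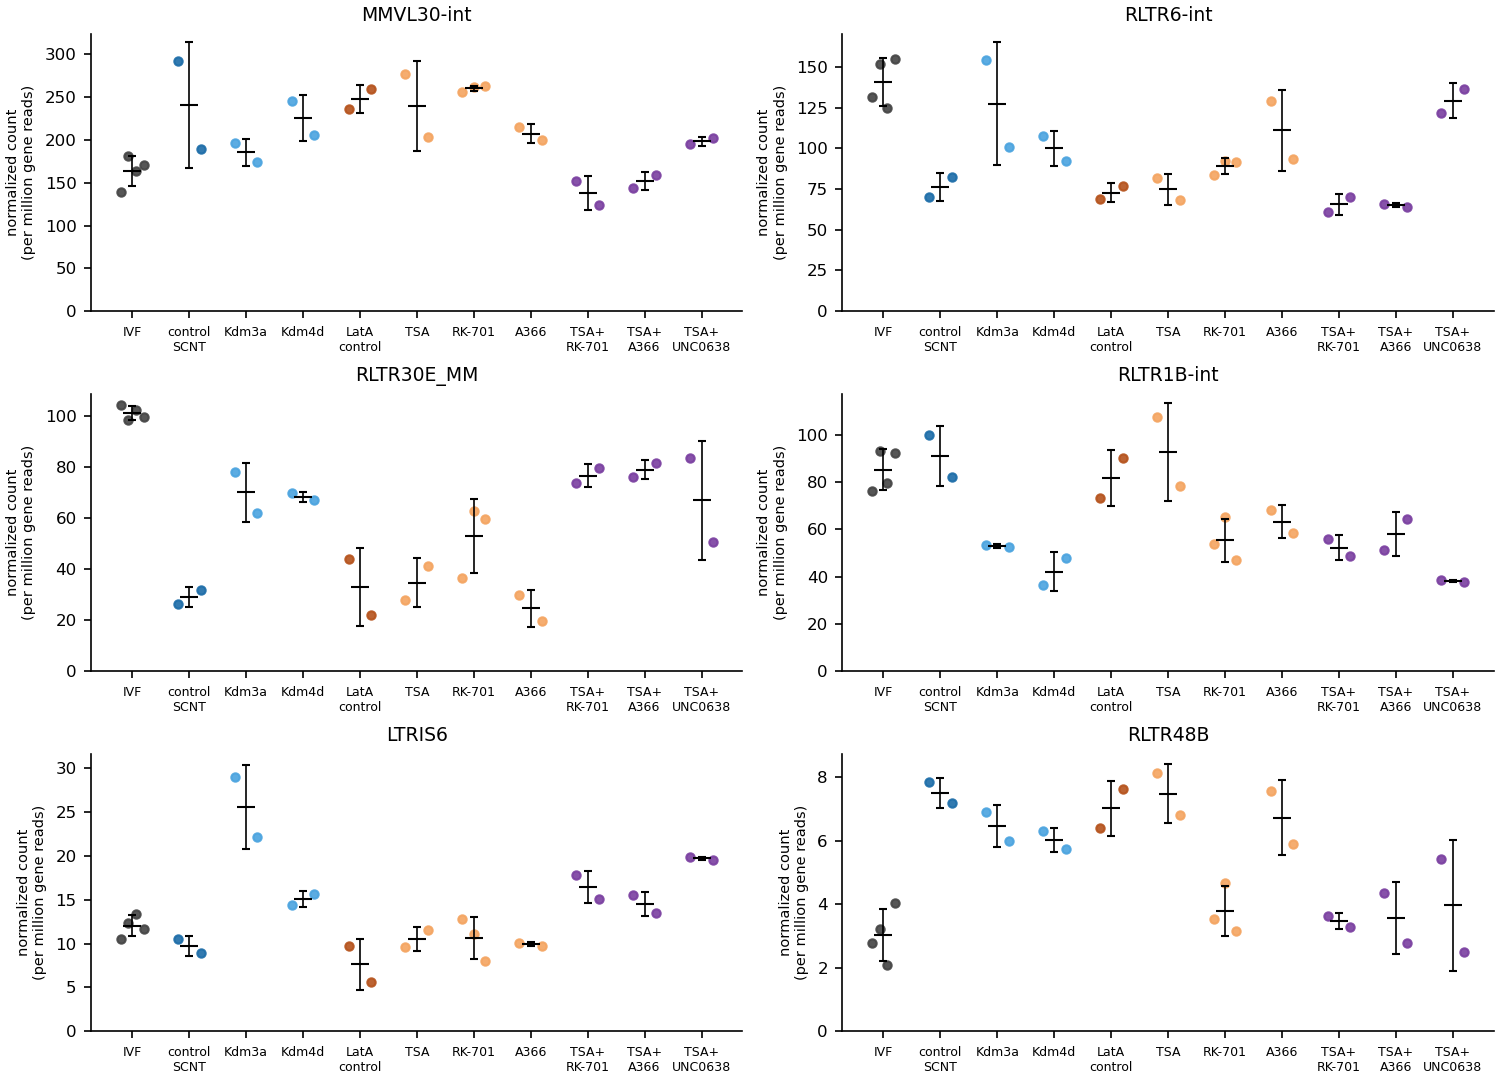
CPM (TMM-scaled gene reads) on a linear axis for ERV1 families named in the text, in each library (points) with mean ± SD (bars) by group. MMVL30-int stood at 139 to 181 in IVF and 189 to 293 in the untreated SCNT controls, RLTR6-int at 125 to 155 and 68.7 to 82.6.

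VL30 elements were divided between IVF and SCNT embryos. MMVL30-int, the most abundant family, had 139, 181, 163 and 171 CPM in the IVF libraries, 293 and 189 in control SCNT and 236 and 259 in LatA controls. Every untreated SCNT library was thus above every IVF library, with a log2 difference of 0.56 ± 0.16 (SE) in control SCNT (adjusted p = 0.00754) and 0.60 ± 0.16 in LatA controls (adjusted p = 0.00578). RLTR6-int, the other VL30 internal family, ran the opposite way, at 132, 152, 125 and 155 in IVF, 70.4 and 82.6 in control SCNT and 68.7 and 76.8 in LatA controls. The groups did not overlap, and the log2 differences were -0.88 ± 0.17 (adjusted p = 0.00033) and -0.95 ± 0.17 (adjusted p = 0.000198). The RLTR6_Mm LTR fell in control SCNT (-0.52). Among 51 tested MMVL30-int copies, 18 rose and 1 fell in control SCNT, and 18 rose and 2 fell in LatA controls. Of all tested repeat copies 12.6% rose and 8.28% fell in control SCNT and 12% rose and 9.79% fell in LatA controls. The median log2 differences of the MMVL30-int copies were 0.93 and 1.38. The MMVL30-int rise lost its call without control SCNT replicate 1, in LatA controls without replicate 2, and in both comparisons when libraries were scaled over repeat families.

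Over the whole superfamily, 11 ERV1 families rose and 8 fell in control SCNT embryos, and 6 rose and 11 fell in LatA controls, whereas of all 669 repeat families 37.5% rose and 6.43% fell in control SCNT and 27.8% rose and 8.67% fell in LatA controls. The split followed the scaling. With TMM factors from repeat families it was 2 higher and 22 lower in control SCNT and 2 and 24 in LatA controls, and with gene reads alone it was 19 and 5, and 21 and 7. The median log2 difference of ERV1 families was 0.14 and -0.02, beside 0.44 and 0.33 over all tested families. In both comparisons 5 ERV1 families rose and 6 fell. These comparisons share the IVF libraries. Without LatA control replicate 2, 3 families rose and 8 fell in LatA controls.

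Among MuRRS families, MuRRS-int stood at 42.9, 47.1, 40.2 and 36.3 in IVF, at 32.0 and 24.1 in control SCNT and at 17.8 and 20.6 in LatA controls. All SCNT values lay below all IVF values, with log2 differences of -0.57 ± 0.22 (adjusted p = 0.0388) and -1.12 ± 0.22 (adjusted p = 0.000601). MuRRS4-int and LTRIS_Mm rose in control SCNT (0.37 and 0.56), and LTRIS6 fell in LatA controls (-0.64, adjusted p = 0.0234). In control SCNT, MuRRS-int changed sign without its copy of most reads (0.0243), and MuRRS4-int changed sign when scaled over repeat families (-0.0826) or with sex chromosomes included (-0.10). None of the 8 GLN families was called in either comparison. Of the MLV-related families named RLTR4, RLTR4_MM-int rose in LatA controls, from 18.1 to 22.2 in IVF to 27.8 and 30.9 (log2 difference 0.54 ± 0.17, adjusted p = 0.0144), while RLTR4_Mm was not called, nor was MuLV-int. MURVY-int fell in control SCNT (-1.62, adjusted p = 0.0228), with 3.88 to 12.1 in IVF and 3.58 and 1.04 in control SCNT.

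Outside the named element groups, MER92-int showed the largest rise of the called families, from 0.648 to 0.976 in IVF to 3.58 and 4.39 in control SCNT and 3.26 and 1.95 in LatA controls. The log2 differences were 2.31 ± 0.52 (adjusted p = 0.00122) and 1.72 ± 0.53 (adjusted p = 0.0142). MER92-int averaged only 24.7 reads per library over 35 copies, with 32.7% of its reads in a single copy and 67.3% inside gene spans. RLTR48B rose from 2.79, 3.23, 2.07 and 4.04 in IVF to 7.84 and 7.18 in control SCNT and 6.41 and 7.63 in LatA controls (1.30 ± 0.30, adjusted p = 0.0016, and 1.20 ± 0.30, adjusted p = 0.00375). Both calls were lost without its copy of most reads. The LTR families RLTR24 and RLTR30D_MM rose in both comparisons, RLTR30D_MM changing sign in both without its copy of most reads, and RLTR14 (0.47 ± 0.13) and MLTR12 (0.95 ± 0.25) rose in control SCNT. RLTR41B fell from 6.98, 9.63, 11.6 and 9.90 in IVF to 3.87 and 2.55 in control SCNT and 4.34 and 3.54 in LatA controls (-1.59 ± 0.36, adjusted p = 0.0012, and -1.27 ± 0.34, adjusted p = 0.00615). MERV1_LTR (-0.79 ± 0.17, adjusted p = 0.000892) and RLTR30C_MM (-1.90 ± 0.55, adjusted p = 0.00996) fell in LatA controls. The RLTR41B copy of most reads held 24.0% of its family's reads, at 3.88 to 5.70 in IVF and 0 in every untreated SCNT library. That of RLTR30C_MM held 39.7%, at 2.18 to 3.26 in IVF and 0.0543 and 0 in LatA controls.

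**Figure D3:**
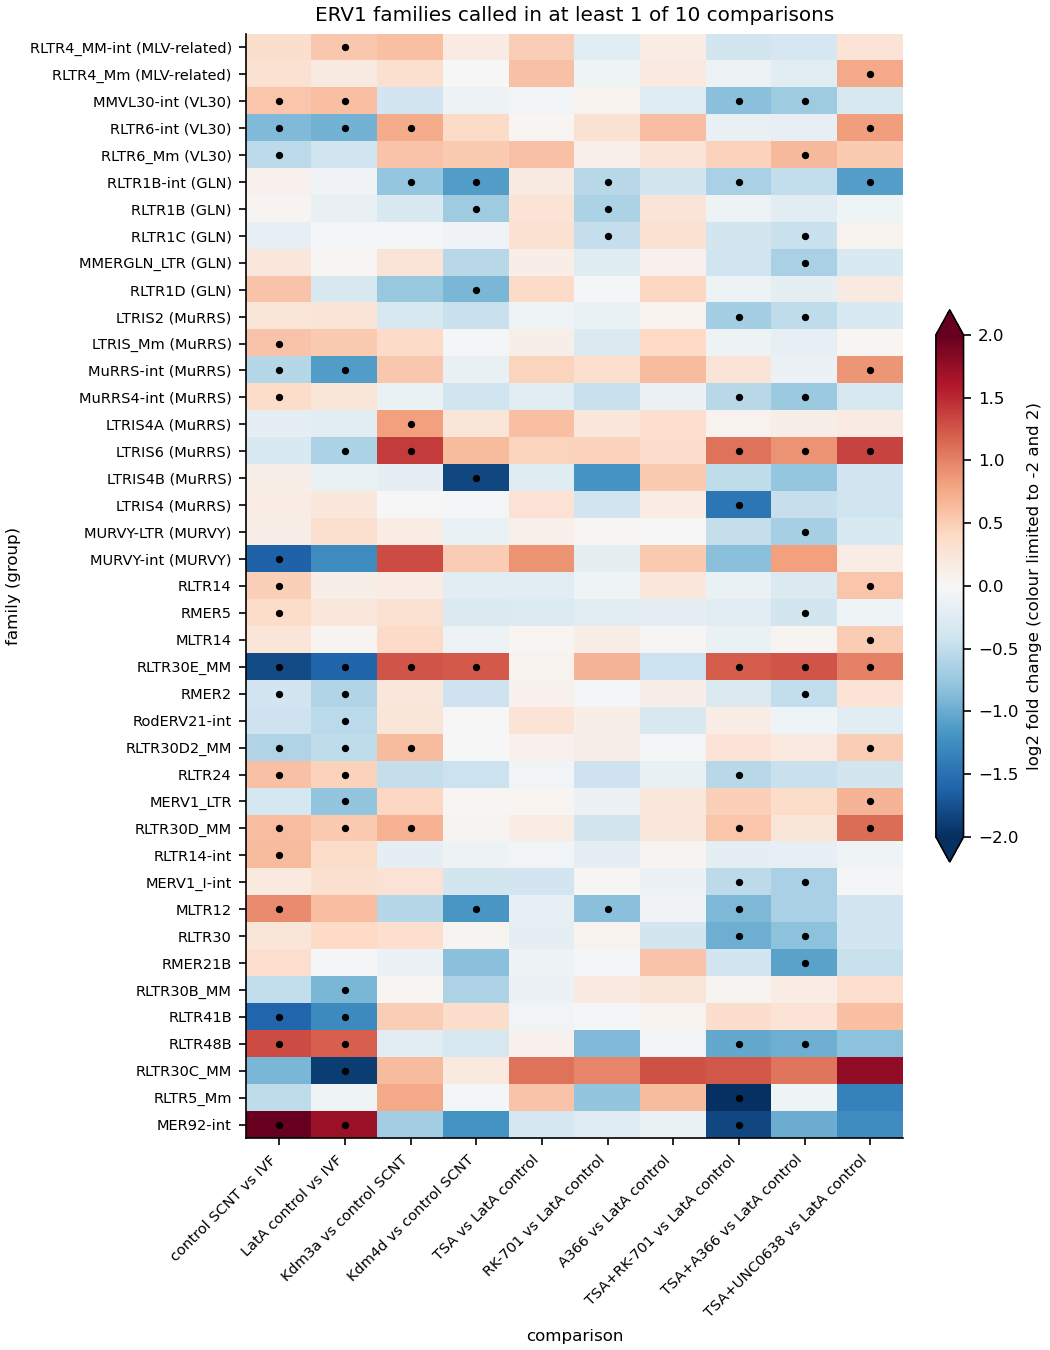
Log2 differences for the 41 ERV1 families called in at least 1 of 10 comparisons (columns), coloured between -2 and 2, with dots on called families. The columns for TSA and for A366 hold no dot, and RLTR30E_MM falls against IVF and rises with Kdm3a, Kdm4d and each TSA co-treatment.

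RLTR30E_MM stood in IVF at 104, 98.4, 102 and 99.5, against 26.4 and 32.0 in control SCNT and 43.8 and 22.1 in LatA controls. The log2 differences were -1.79 ± 0.27 (adjusted p = 4.38e-05) and -1.61 ± 0.27 (adjusted p = 9.33e-05). A single copy at chr7:43264423-43264768 on the plus strand, outside genes and 31429 bases from Zfp715, held 84.7% of the family's reads. It stood at 88.5 to 95.2 in IVF, 13.8 and 20.2 in control SCNT and 34.4 and 14.0 in LatA controls. Kdm3a brought it to 64.6 and 52.1 (log2 difference from control SCNT 1.78, adjusted p = 0.0261), Kdm4d to 59.5 and 60.1 (1.82, adjusted p = 0.0402) and TSA with A366 to 69.3 and 72.8 (1.55 from LatA controls, adjusted p = 0.0393). With TSA and RK-701 it stood at 66.8 and 70.9, and with TSA and UNC0638 at 70.8 and 41.3, and neither passed the test (adjusted p = 0.062 and 0.103). None of these groups reached the IVF range. Zfp715, a zinc finger gene, rose in both controls (1.33 and 1.41, adjusted p = 0.000145 and 7.37e-05) and was not called with any treatment. Before the copy and on its strand lie EU599041, ending at 43226842, and Zfp936, ending at 43192109, both described at the end. Zfp936 fell in both controls (-2.005 and -2.63) and rose with both mRNAs (1.78 and 1.84) and in the 3 co-treatments (1.55, 1.66 and 1.31). EU599041 fell in LatA controls only (-1.23) and rose with both mRNAs (1.48 and 1.41). Their part in the reads of this copy was not tested. Without this copy the family's difference changed sign in control SCNT, with both mRNAs and in the TSA co-treatments with RK-701 and A366.

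At the level of single copies, 395 ERV1 copies at 356 loci passed the filter of a mean of 10 reads, 107 inside gene spans and 288 outside, and they held 65.8% of the ERV1 reads. In control SCNT embryos 48 copies rose and 43 fell, and in LatA controls 41 rose and 38 fell, beside the shares of all 24153 tested repeat copies given above. Both comparisons called 30 copies higher and 26 lower, and none in opposite directions. Internal copies were called higher more often than lower (22 and 12 of 124 in control SCNT, 23 and 10 in LatA controls), and LTR copies were 26 higher and 31 lower of 271, and 18 and 28. The difference between these classes was not tested. Without control SCNT replicate 1, 23 copies rose and 20 fell in control SCNT.

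Some copies had no reads in IVF or in untreated SCNT embryos. An LTRIS4A copy at chr2:156826699-156827171 on the minus strand, outside genes, had 0 reads in all IVF libraries and 1.55 and 1.67 CPM in control SCNT. It was at least 28.2-fold higher in control SCNT and at least 19.7-fold higher in LatA controls, taking 3 reads over the IVF group as the floor. An RLTR41B copy at chr8:128877845-128878253 on the plus strand, inside Ccdc7a and opposite to it, ran from 3.88 to 5.70 in IVF and had 0 reads in all 4 untreated SCNT libraries. It was at least 39.9-fold lower in control SCNT and at least 50.9-fold lower in LatA controls. An RLTR14 copy at chr6:9843708-9844053 on the plus strand, 327739 bases from the nearest gene, ran from 1.94 to 4.23 in IVF and had 0 reads in the untreated SCNT and TSA libraries (at least 24.8-fold and 31.6-fold lower). It stood at 4.50 and 0.855 in the Kdm3a libraries and at 2.66 and 2.38 in the Kdm4d libraries. With the floor again over the group, it exceeded its control SCNT level by at least 23.8-fold with Kdm3a and 19.2-fold with Kdm4d. The Kdm3a bound pools both libraries, of which replicate 1 held 86 reads and replicate 2 held 10. These bounds cover counting error only.

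Of the named copies, the one with the largest rise in CPM in control SCNT was part of a GLN element inside Dnaaf1, a gene for a dynein arm assembly factor, on the strand opposite to it. The RLTR1B-int copy at chr8:119584247-119586836, minus strand, had 3.88, 5.41, 4.21 and 7.18 CPM in IVF, 67.2 and 49.0 in control SCNT and 41.1 and 63.1 in LatA controls. Its log2 differences were 3.48 ± 0.32 (adjusted p = 1.34e-06) and 3.32 ± 0.31 (adjusted p = 2.77e-06). The adjoining RLTR1B LTR at chr8:119583906-119584246 stood at 0.870 to 1.19 in IVF, 29.0 and 9.89 in control SCNT and 7.76 and 24.0 in LatA controls (4.28 and 3.98 on the log2 scale). Dnaaf1 itself rose by less (1.63 and 1.23, adjusted p = 4.73e-05 and 0.00117). The internal copy fell with Kdm3a to 17.1 and 21.0 (log2 difference -1.61, adjusted p = 0.0281), with Kdm4d to 9.92 and 18.0 (-2.06, adjusted p = 0.0163), with RK-701 to 15.8, 20.1 and 11.7 (-1.71, adjusted p = 0.0169) and with TSA and UNC0638 to 10.1 and 14.0 (-2.11, adjusted p = 0.00591). All of these libraries stayed above every IVF library. With TSA and RK-701 it stood at 31.2 and 23.6 and with TSA and A366 at 23.4 and 29.7, below both LatA controls but not called, and Dnaaf1 was not called in any treatment.

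Some copies that were low in untreated SCNT and higher after treatment lay inside or next to genes, whose differences are given with them. The RLTR6_Mm LTR at chr14:13597748-13598312, minus strand, lies in Synpr, which encodes a synaptic vesicle protein, opposite to it. It had 7.75, 7.83, 12.2 and 7.18 CPM in IVF, 1.26 and 0.478 in control SCNT and 1.79 and 0.838 in LatA controls (log2 differences -3.34 ± 0.45, adjusted p = 0.000113, and -2.70, adjusted p = 0.000378). It rose to 5.71 and 6.24 with Kdm3a and to 6.05 and 6.31 with Kdm4d (2.79 and 2.84, adjusted p = 0.00506 and 0.00844). With TSA it reached 10.4 and 10.3 together with RK-701, 11.9 and 10.8 with A366 and 9.80 and 5.67 with UNC0638 (2.94, 3.07 and 2.52, adjusted p = 0.0052, 0.00247 and 0.00574). Both libraries of TSA with RK-701 and of TSA with A366 lay inside the IVF range, whose upper end is replicate 3, and above the other IVF libraries (7.18 to 7.83). RK-701 alone gave 2.11, 2.96 and 2.04, A366 alone 3.02 and 3.43, and TSA alone 4.32 and 4.76, none of them called. Synpr fell in both controls (-2.09 and -1.11) and rose with Kdm3a, with Kdm4d and with TSA and RK-701 or A366 (2.18, 1.6, 1.54 and 1.41).

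The same course was seen at 2 further copies. The RLTR14_RN LTR at chr7:27960691-27961047, minus strand, lies in the zinc finger gene Zfp780b on its strand. It stood at 4.03 to 8.5 in IVF, 0.678 and 1.12 in control SCNT and 1.85 and 0.652 in LatA controls. It rose with Kdm3a (2.75, adjusted p = 0.00618), with Kdm4d (2.67, adjusted p = 0.0157) and in the 3 TSA co-treatments (2.58, 2.05 and 2.00 with RK-701, A366 and UNC0638), and Zfp780b was called in the same direction in all 7 of these comparisons. A MERV1_LTR copy at chr13:22722074-22722569, plus strand, 148 bases from Vmn1r207-ps, a vomeronasal receptor pseudogene, stood at 4.48 to 7.04 in IVF, 0.872 and 0.319 in control SCNT and 0.489 and 0.838 in LatA controls. It rose to 6.60 and 5.05 with Kdm3a (3.30, adjusted p = 0.0155) and to 5.57 and 3.58 with Kdm4d (2.95, adjusted p = 0.0454), and with TSA and RK-701 or A366 (2.73 and 3.16). Vmn1r207-ps fell in both controls (-3.998 and -3.49) and rose with both mRNAs (3.75 and 3.98) and in the 3 co-treatments (2.92, 3.45 and 2.68). All calls of these 3 copies against IVF held in each alternative run, whereas their treatment calls were lost when the fit held only the compared libraries. The comparisons with an mRNA share the control SCNT libraries with each other, and those with an inhibitor share the LatA controls.

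**Figure D4:**
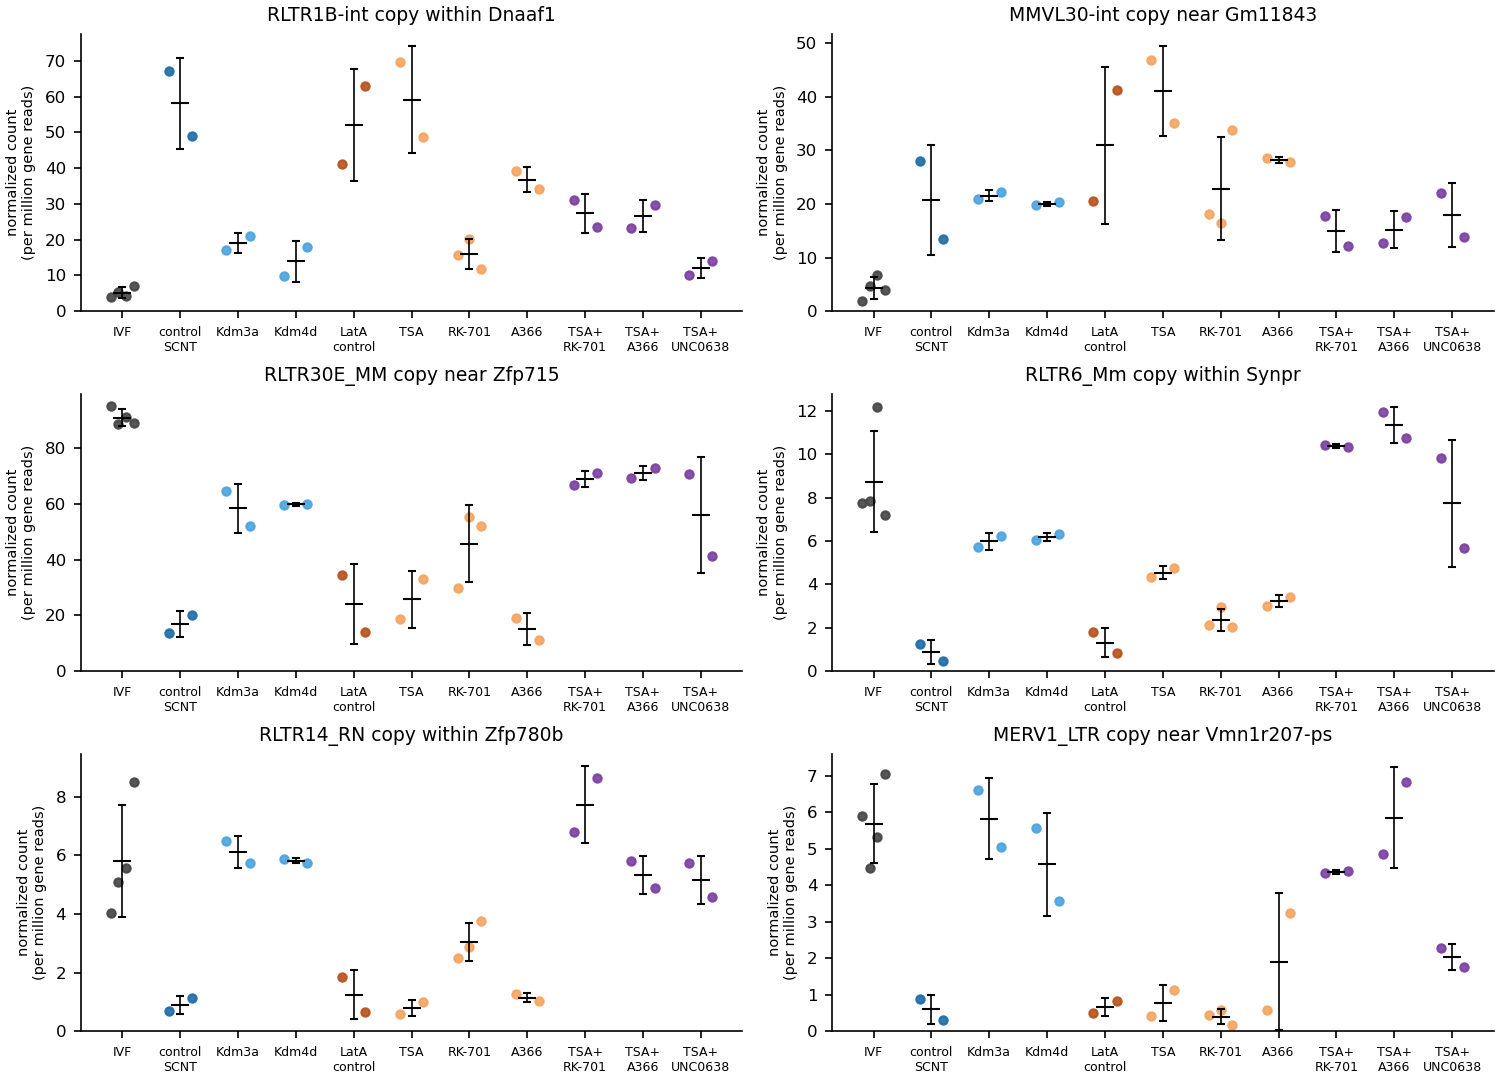
CPM (TMM-scaled gene reads) on a linear axis at named ERV1 copies, in each library (points) with mean ± SD (bars) by group. The RLTR1B-int copy in Dnaaf1 stood at 3.88 to 7.18 in IVF and 41.1 to 67.2 in untreated SCNT, and the RLTR6_Mm copy in Synpr at 7.18 to 12.2 and 0.478 to 1.79.

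VL30 copies differed among themselves. The MMVL30-int copy of most reads, at chr4:12133727-12137565, minus strand, 1752 bases from Gm11843, held 9.9% of the family's reads. It rose from 1.86 to 6.74 in IVF to 28.1 and 13.6 in control SCNT and 20.5 and 41.3 in LatA controls (2.24, adjusted p = 0.00121, and 2.81, adjusted p = 0.000192). Another, at chr13:62082618-62084393, minus strand, inside Gm48228 on its strand, fell from 27.9 to 40.9 in IVF to 9.01 and 11.2 in control SCNT and 12.6 and 6.52 in LatA controls (-1.81 and -1.88). It rose with TSA and UNC0638 (1.44, adjusted p = 0.0484). The RLTR30D_MM copy at chr6:54963646-54964115, plus strand, inside Nod1 and opposite to it, held 71.8% of its family's reads and rose in both controls (1.76 and 1.73) and again with TSA and UNC0638 (1.33, adjusted p = 0.0387).

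Kdm3a and Kdm4d mRNA were compared with control SCNT embryos to ask what demethylation of H3K9 does to these transcripts. Kdm3a raised 6 ERV1 families and lowered 1, beside 4.78% of all families raised and 0.897% lowered. Kdm4d raised 1 and lowered 5, beside 1.35% raised and 16.0% lowered. The median log2 difference of ERV1 families was 0.23 with Kdm3a and -0.15 with Kdm4d, beside -0.05 and -0.39 over all families. With TMM factors from repeat families the splits were 10 higher and 2 lower, and 6 and 1, and with gene reads alone 2 and 6, and 1 and 21. Leaving out control SCNT replicate 1 left 2 families called with each mRNA, leaving out Kdm3a replicate 1 left 1 with Kdm3a, and leaving out Kdm4d replicate 1 or 2 left 0 or 1 with Kdm4d. At the copy level 18 copies rose and 1 fell with Kdm3a (1.78% and 0.397% of all copies), and 7 rose and 4 fell with Kdm4d (0.7% and 0.393% of all copies). Kdm3a raised 15 of 271 LTR copies and 3 of 124 internal copies, a difference that was not tested. Leaving out any 1 of the compared libraries left 3 to 12 copies called with Kdm3a and 1 to 3 with Kdm4d, and a fit of the compared libraries alone called no copy with either, no family with Kdm3a and 3 with Kdm4d.

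LTRIS6, an LTR of the MuRRS elements, had the largest family change with Kdm3a. It rose from 10.6 and 8.93 in control SCNT to 29.0 and 22.2 (1.40 ± 0.24, adjusted p = 0.00109), above the IVF range of 10.5 to 13.4, and stood at 14.4 and 15.7 with Kdm4d. RLTR6-int rose from 70.4 and 82.6 to 154 and 101 with Kdm3a (0.74 ± 0.19, adjusted p = 0.0227), and this call was lost without either control or without Kdm3a replicate 1. RLTR30D_MM rose to 39.1 and 38.1 from 18.2 and 29.1 (0.70). RLTR1B-int fell with both mRNAs, from 100 and 82.2 to 53.6 and 52.5 with Kdm3a (-0.78 ± 0.19, adjusted p = 0.017) and to 36.3 and 48.1 with Kdm4d (-1.11 ± 0.20, adjusted p = 0.00322), where MLTR12 and RLTR1B also fell (-1.16 and -0.70). Without the Dnaaf1 copy the RLTR1B-int difference with Kdm3a changed sign, and LTRIS6 likewise changed sign without its copy of most reads. The summed two-cell marker list was 1560 and 1262 in the Kdm3a libraries against 610 and 693 in control SCNT. The oocyte list was 1027 and 877 in the Kdm4d libraries against 552 and 612. Within it, the mean with Kdm4d and in control SCNT was 596 and 309 for Oosp1 and 112 and 46.0 for Zp3. Gdf9 (56.5 and 53.8), Zp2 (53.7 and 47.5) and Nlrp5 (114 and 96.6) differed less, and Zp1 (17.2 and 26.0) and Mos (3.14 and 3.77) were lower. The part of both lists in these values was not tested.

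TSA and A366 alone changed few ERV1 members. No family passed the test under either in edgeR, where 0.598% and 0.897% of all families were called, and 7 and 6 ERV1 families had an unadjusted p below 0.05. DESeq2 also called no family. TSA called no copy in edgeR (0.182% of all copies) and 4 in DESeq2. A366 called 1 (0.464% of all copies rose and 0.0455% fell), an LTRIS_Mus copy at chr7:29742260-29742553, plus strand, which rose (2.38, adjusted p = 0.0055), and DESeq2 called 9. RK-701 alone lowered 4 families and raised 0, beside 12.7% of all families lowered and 1.05% raised, and it raised 1 copy and lowered 3 (0.356% and 1.03% of all copies). These were MLTR12 (-0.84 ± 0.27, adjusted p = 0.0406) and the GLN families RLTR1B (-0.63, adjusted p = 0.0492), RLTR1B-int (-0.56 ± 0.18, adjusted p = 0.0389) and RLTR1C (-0.48 ± 0.14, adjusted p = 0.0331). The summed oocyte marker list was 981 to 1203 with RK-701, against 456 and 571 in LatA controls and 466 and 590 with A366, and its part in these values was not tested. RLTR1B-int stood at 53.8, 65.2 and 47.3 with RK-701 against 73.3 and 90.1 in LatA controls, and its difference was 0.41 without the Dnaaf1 copy. With TMM factors from repeat families, RK-701 raised 3 ERV1 families and lowered none, and without LatA control replicate 2 no family was called. RK-701 called 9 families without LatA control replicate 1 and 1 without its own replicate 1 or 3, and its copies numbered 22 without LatA control replicate 1, 0 without LatA control replicate 2 and 0 or 1 without any of its own replicates. Without LatA control replicate 2, TSA called 2 families and 2 copies and A366 3 families and 9 copies. Without LatA control replicate 1, TSA called 1 copy, and without either A366 replicate A366 called 2.

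Co-treatment with TSA gave more calls. TSA with RK-701 raised 3 families and lowered 12, TSA with A366 likewise raised 3 and lowered 12, and TSA with UNC0638 raised 10 and lowered 1, beside 2.99% of all families raised and 25.7% lowered, 2.39% and 29.3%, and 7.32% and 7.62%. With TMM factors from repeat families the splits were 10 and 0, 7 and 0, and 14 and 1, and with gene reads alone 2 and 28, 2 and 24, and 3 and 9. Copies called were 4 higher and 5 lower, 7 and 10, and 18 and 5, beside 1.21% and 0.638%, 1.81% and 1.89%, and 2.91% and 0.621% of all copies. MMVL30-int fell from 236 and 259 in LatA controls to 152 and 124 with TSA and RK-701 (-0.84 ± 0.19, adjusted p = 0.00393) and to 144 and 159 with TSA and A366 (-0.71 ± 0.19, adjusted p = 0.00776). It stood at 277 and 203 with TSA, 256 to 263 with RK-701, 215 and 200 with A366 and 195 and 202 with TSA and UNC0638, none called. LTRIS6 rose in all 3 co-treatments, from 9.66 and 5.59 to 17.8 and 15.1, 15.5 and 13.5, and 19.8 and 19.6 (1.09, 0.91 and 1.35, each ± 0.24), and RLTR30E_MM rose in all 3 (1.21, 1.25 and 1.01, each ± 0.29). Without its copy of most reads, LTRIS6 changed sign with TSA and RK-701 or A366 (-1.37 and -0.37). Without LatA control replicate 2, 1 family was called with TSA and RK-701 and 4 with TSA and A366, and without LatA control replicate 1, 7 were called with TSA and UNC0638. Leaving out replicate 1 or 2 of the co-treated group left 8 or 1, 7 or 4, and 6 or 4 families. Copy counts over all these omissions ran from 1 to 17, 1 to 22, and 8 to 26. A fit of the compared libraries alone called no family and no copy in any of the 3 comparisons. RLTR48B fell with TSA and RK-701 (-1.02 ± 0.36, adjusted p = 0.036) and with TSA and A366 (-0.97 ± 0.35, adjusted p = 0.0406).

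TSA with UNC0638 gave mostly higher families. RLTR6-int stood at 122 and 137, against 68.7 and 76.8 in LatA controls (0.83 ± 0.19, adjusted p = 0.00631), 60.9 and 70.2 with TSA and RK-701 and 66.1 and 64.2 with TSA and A366. RLTR14 reached 200 and 193 (0.56 ± 0.15, adjusted p = 0.0198, and -0.0083 without its copy of most reads) and RLTR30D_MM 55.5 and 41.3 (1.12 ± 0.20, adjusted p = 0.001). RLTR4_Mm, an LTR of murine leukaemia virus-related elements, reached 18.4 and 18.1 against 9.66 and 11.9 (0.76 ± 0.22, adjusted p = 0.0236), and MuRRS-int rose as well (0.88 ± 0.25, adjusted p = 0.0223). RLTR1B-int fell to 38.5 and 37.9 from 73.3 and 90.1 (-1.10 ± 0.20, adjusted p = 0.00096). The RLTR6-int rise was lost without TSA and UNC0638 replicate 2. The summed two-cell marker list was 1549 and 1453 with TSA and UNC0638, 503 to 516 with TSA and RK-701 and 435 to 515 with TSA and A366, and its part in these values was not tested.

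The inhibitors were set against each other in 4 pairs at matched dose and time. Between the TSA co-treatments with A366 and with RK-701, no ERV1 family passed edgeR's test (3 at an unadjusted p below 0.05, 0 in DESeq2, and 0.0% of all families called). The 95% intervals of that difference lay within a 2-fold change for 48 of 67 families, and reached past it for the others. TSA with UNC0638 was higher than TSA with RK-701 in 6 families and lower in 0 (6.73% and 0.299% of all families), and higher than TSA with A366 in 9 and lower in 0 (9.87% and 0.149%). RLTR6-int (0.98 and 0.99, adjusted p = 0.0061 and 0.00315), RLTR14 (0.69 and 0.85, adjusted p = 0.00887 and 0.00179), RLTR4_Mm (0.87 and 0.97, adjusted p = 0.0215 and 0.00826) and RMER2 (0.55 and 0.77) were higher in both. With TMM factors from repeat families these counts became 1 higher and 2 lower, and 3 and 2, and with gene reads alone 7 and 0, and 6 and 0. Without TSA, A366 was higher than RK-701 in 10 families and lower in 2 (23.0% and 2.84% of all families), among them RLTR1B (0.89 ± 0.21, adjusted p = 0.00498) and RLTR1C (0.78 ± 0.14, adjusted p = 0.000689), with RLTR30E_MM lower (-1.10 ± 0.28, adjusted p = 0.00736, and 0.42 without its copy of most reads). With repeat scaling that split was 4 and 9, and with gene reads alone 8 and 2. The oocyte marker sums given above differ between these groups too. Leaving out 1 library left 0 to 5 families called between the co-treatments with UNC0638 and RK-701, 0 to 5 between those with UNC0638 and A366 and 5 to 11 between A366 and RK-701 without TSA. P-values were adjusted over families within each pair.

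Whether TSA and an inhibitor acted additively was tested by their interaction. For RK-701 no ERV1 family passed edgeR's test (8 at an unadjusted p below 0.05, 0 in DESeq2, and 0.0% of all families called). For A366, 1 family had a positive and 5 a negative interaction term, beside 0.448% and 8.22% of all families, and the split was 2 and 0 with repeat scaling and 1 and 13 with gene reads alone. Leaving out 1 library gave 0 to 17 families, with 0 without TSA replicate 1 or TSA and A366 replicate 2 and 17 without LatA control replicate 2. No copy passed either interaction test in edgeR (0.0124% and 0.0538% of all copies), whereas DESeq2 called 2 with RK-701 and 14 with A366.

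ERV1 elements overlapped 149 of 31396 autosomal promoter windows (0.475%), those of 141 genes, of which 29 genes were tested. With Kdm3a 7 of these genes rose and 0 fell, with Kdm4d 6 and 1, and in the TSA co-treatments 5 and 1 (RK-701), 6 and 1 (A366) and 5 and 0 (UNC0638). Over all genes 4.16%, 3.14%, 6.19%, 5.98% and 6.21% were called in these comparisons. Against IVF 3 rose and 4 fell in control SCNT and 3 and 6 in LatA controls, with 15.0% and 15.3% of all genes called. An overlap could be as short as 3 bases, as at Zfp949. EU599041, Zfp936 and Zfp977 were among the genes that rose with both mRNAs. They are neighbours on chromosome 7 whose windows were 87.9 to 91.7% identical, so their calls are not independent. RLTR48B covered 22, 27 and 22 bases of these 3 windows. The genes with RLTR48B in their windows, whose sequences are given above, were chosen after their values were seen.

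**Figure D5:**
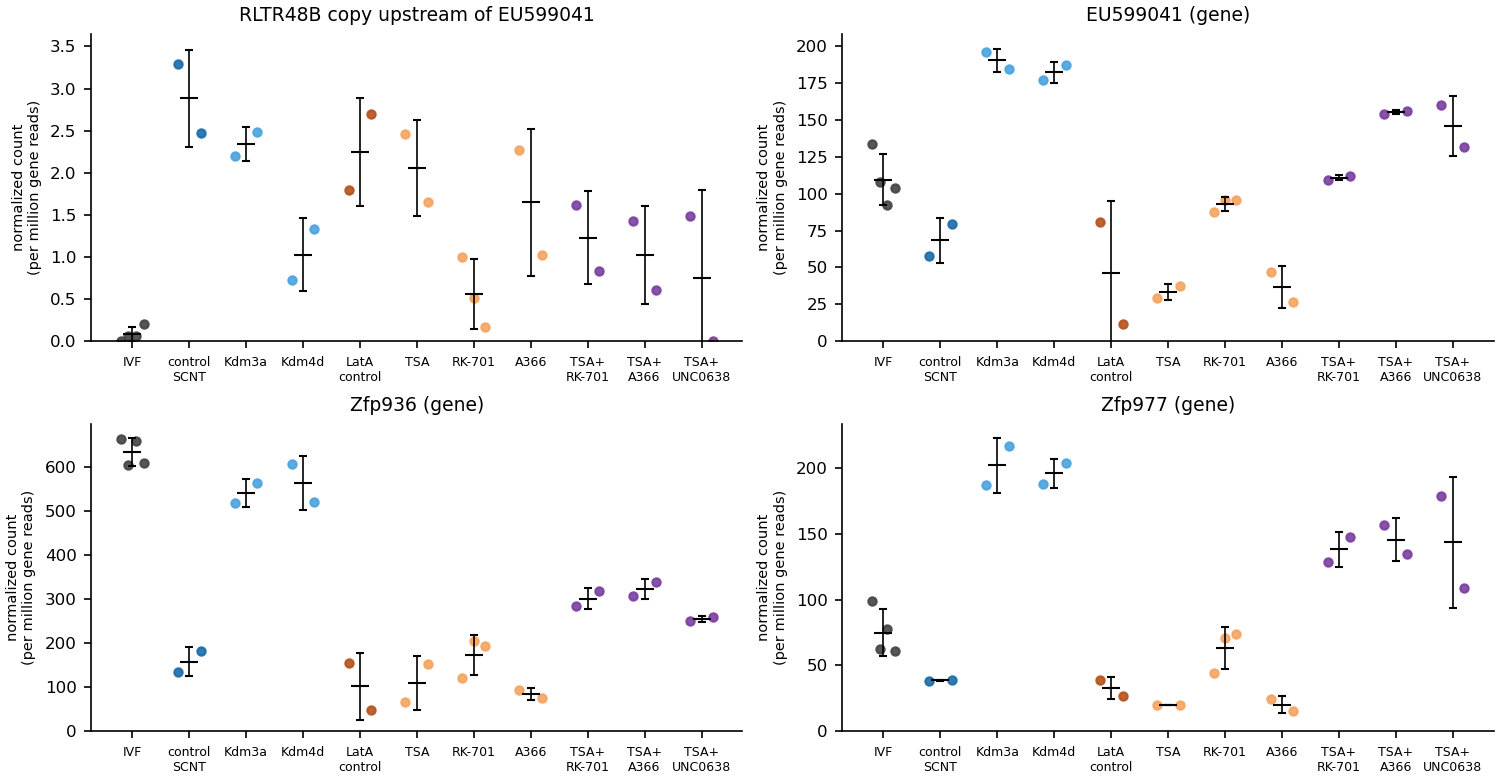
CPM (TMM-scaled gene reads) on a linear axis for the RLTR48B copy before EU599041 and for the genes EU599041, Zfp936 and Zfp977, in each library (points) with mean ± SD (bars) by group. Zfp936 stood at 604 to 664 in IVF, 48.2 to 181 in untreated SCNT and 519 to 607 with Kdm3a or Kdm4d.

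Zfp936, a KRAB zinc finger gene, had 664, 604, 659 and 609 CPM in IVF, 134 and 181 in control SCNT and 156 and 48.2 in LatA controls (log2 differences -2.005, adjusted p = 4.92e-05, and -2.63, adjusted p = 2.3e-06). It rose to 519 and 564 with Kdm3a (1.78, adjusted p = 0.00254), to 607 and 521 with Kdm4d (1.84, adjusted p = 0.00282) and to 250 to 339 in the TSA co-treatments (1.55, 1.66 and 1.31). Zfp977 rose above IVF levels, from 38.3 and 39 in control SCNT to 188 and 217 with Kdm3a and 188 and 204 with Kdm4d, against 61.0 to 98.9 in IVF (2.39 and 2.34). It also rose in all 3 co-treatments (2.06, 2.14 and 2.12). EU599041 had 92.6 to 134 CPM in IVF, 57.6 and 79.3 in control SCNT and 80.8 and 11.8 in LatA controls. It fell in LatA controls (-1.23, adjusted p = 0.019) and was not called in control SCNT (-0.67, adjusted p = 0.201). It rose above IVF levels with Kdm3a, to 196 and 185, and with Kdm4d, to 177 and 187 (1.48 and 1.41). It also rose with TSA and A366 or UNC0638 (1.73 and 1.64), and its value with TSA and RK-701 (1.24, adjusted p = 0.0565) was not called. TSA, RK-701 or A366 alone called none of these 3 genes. With RK-701, Zfp977 passed the adjusted p but not the 2-fold cut (0.93, adjusted p = 0.0284). It stood there at 44.5, 70.9 and 74.2, against 38.9 and 27.0 in LatA controls. EU599041 (0.99, adjusted p = 0.140) and Zfp936 (0.76, adjusted p = 0.170) passed neither with RK-701. Among the LTRs themselves, the RLTR48B copy before EU599041, at chr7:43213341-43213810, stood at 0 to 0.209 in IVF and at 1.79 to 3.29 in untreated SCNT (4.81, adjusted p = 0.00197, and 4.44, adjusted p = 0.00329), and those before Zfp977 and Zfp976 had 1 and 0 reads over all libraries. The copy at the Zfp936 window, at chr7:43176912-43177366, had 157 reads over all libraries and was not tested. It stood at 0 to 0.249 in IVF, 0.484 and 0.877 in control SCNT, 0 and 0.279 in LatA controls, 0.471 and 0.684 with Kdm3a, 0.403 and 1.61 with Kdm4d and 0.309 to 0.744 in the TSA co-treatments. Zfp976, the other gene with the 22 bases, was not called in any of the 10 comparisons. It stood at 0.648 to 2.55 in IVF and 0.581 and 1.91 in control SCNT, and its differences with Kdm3a and Kdm4d were 2.33 and 2.46 (adjusted p = 0.0594 and 0.051). Among neighbouring genes outside the set with an ERV1 window, some rose and others did not. Zfp975, Zfp719, Zfp819 and Zfp658 were not called with either mRNA or any co-treatment (Zfp719 -0.61 and Zfp819 -1.33 with Kdm3a). Gm2381 rose with both mRNAs (3.37 and 3.10) and with TSA and RK-701 or A366 (2.40 and 2.44), and Gm21028 with both mRNAs (1.86 and 2.44) and in the 3 co-treatments (2.41, 2.74 and 2.02), both named after their values were seen. Resf1 on chromosome 6, whose window also holds RLTR48B and was 47.5 to 49.5% identical to those on chromosome 7, was not called in any of the 10 comparisons.

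All 28 listed genes of retroviral silencing were tested. Ehmt2, encoding G9a, rose in control SCNT and LatA controls (1.64 and 1.6, adjusted p = 2e-06 and 2.97e-06), from 10.1 ± 0.926 in IVF (n = 4) to 31.5 ± 2.92 and 30.6 ± 0.240 (n = 2 each). Against IVF, 1 gene rose and 1 fell in control SCNT and 2 rose and 1 fell in LatA controls, beside 15.0% and 15.3% of all genes called, the others being Cbx1 (-1.04), encoding a heterochromatin protein, Chaf1b (1.00), a chromatin assembly factor subunit, and Zfp809 (-1.06). ZFP809, a KRAB zinc finger protein that binds murine leukaemia virus and VL30 elements, stood at 132.8 ± 15.7 (transcript, n = 4) in IVF. Its transcript stood at 104.6 ± 6.63 in control SCNT and at 63.6 ± 38.6 in LatA controls (n = 2 each), whose libraries differed widely. Against those LatA controls it rose with RK-701 (1.05, adjusted p = 0.0144) and with TSA and UNC0638 (1.62, adjusted p = 0.000385). It then stood at 132.4 ± 18.4 (n = 3) and 196.9 ± 5.90 (n = 2). Dnmt3b, a DNA methyltransferase gene, fell with Kdm3a and in all 3 TSA co-treatments (-1.50, -1.28, -1.20 and -1.73). With Kdm3a 0 rose and 2 fell, with Kdm4d 2 and 1, and in the co-treatments 1 and 1 (RK-701), 0 and 1 (A366) and 2 and 1 (UNC0638), beside 4.16%, 3.14%, 6.19%, 5.98% and 6.21% of all genes called. Trim28 and Setdb1 were not called in any of these comparisons. TSA and A366 alone called no gene of the list in edgeR or DESeq2, where 0.318% and 0.12% of all genes were called in edgeR, and RK-701 called 2 (3.35% of all genes).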

How the data were processed

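RNA of 25 libraries of pooled two-cell embryos in 11 groups was read as the authors' table of raw counts, in which a count is the number of read pairs assigned to 1 gene or 1 repeat copy. Reads were trimmed with Trimmomatic and aligned with STAR per the labels, and the study kept unique alignments. The deposited counts were made with featureCounts 1.6 per the file headers, with fragments counted when both ends aligned, on reference genes joined with best-match RepeatMasker copies of mm10. Strand was not used, and reads that matched several places or overlapped 2 features were not counted. Young, nearly identical copies are therefore undercounted, and a family sum represents its distinguishable copies. The file has no columns of other comparisons.

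Groups were taken from the sample labels. Autosomal copies of every class were summed by family. Differences were tested with edgeR 4.0.16 (limma 3.58.1, R 4.3.3) by its quasi-likelihood test with Benjamini-Hochberg adjustment, in 1 fit of all 25 libraries with a term for each group and with library sizes and TMM factors from gene reads. Families and copies needed a mean of at least 10 reads and genes a mean of at least 1. Families were called at an adjusted p below 0.05, and copies and genes also needed a fold change over 2. The scripts were checked on simulated data. The summed ERV1 level was tested by a two-sided exact permutation test (scipy 1.17.1). Values were prepared with Python 3.11.15, pandas 2.3.3 and numpy 2.4.6. DESeq2 1.42.0, other scalings, filters, fits and copy sets and the omission of each library served as alternatives. Libraries held 6662727 to 21188688 gene reads, and replicate libraries differed by more than counting noise (chi-square per degree of freedom 7.35 to 60.3), so none were merged. Floors of 3 reads cover counting error only.

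Families were named by element group, by being among the 10 of highest mean, or as the up to 5 largest called changes per direction and comparison, and copies as the up to 3 largest, with at least 10 reads in every library of the higher group. Members, marker lists and the silencing list were chosen with earlier results of these data known. Promoter windows (250 bases before to 50 after each start) came from RefSeq for GRCm38.p6. Sex-chromosome copies were left out of the sums.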

Additional observations from a re-analysis of the deposited data

Results flagged for a closer look

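In groups of 4 libraries, 1 value was set apart when its gap to the nearest other library took more than 0.83 of the group's range. Of 85 values tested this way 5 were set apart, and chance alone sets apart about 1 in 20 groups. All were IVF libraries, IVF being the only group of that size. LTRIS_Mus stood at 81.6 CPM of gene reads in IVF replicate 1, LTRIS4A at 10.3 and LTRIS4B at 6.28 in IVF replicate 2. The LTRIS_Mus copy at chr7:29742260-29742553 stood at 8.84 in IVF replicate 1, and the RLTR6_Mm copy in Synpr at 12.2 in IVF replicate 3.

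The response to A366 differed with and without TSA in 6 families by edgeR's interaction test. The interaction terms on the log2 scale were -1.53 ± 0.47 (SE) for RMER21B (adjusted p = 0.0459), -1.20 ± 0.35 for MuRRS-int (adjusted p = 0.0389), -1.05 ± 0.22 for the GLN family RLTR1C (adjusted p = 0.0122), -0.99 ± 0.27 for RLTR4_MM-int (adjusted p = 0.0297) and -0.72 ± 0.22 for RMER2 (adjusted p = 0.0418). RLTR30E_MM alone had a positive term, 1.62 ± 0.41 (adjusted p = 0.0231), which was -0.30 without its copy of most reads.

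Copies on chromosome Y were outside the autosomal sums and entered only the alternative that included the sex chromosomes. Their ERV1 reads averaged 21.0 CPM in IVF, where replicate 3 had 57.2 and the others 7.88 to 10.9, and ran from 4.51 to 17.0 in the untreated SCNT controls. All SCNT embryos were female per the paper, and their libraries also held reads on these copies. The source of those reads was not tested.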

How the results depend on the processing

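Of 25834 autosomal ERV1 copies, 395 had a mean of 10 reads and were tested, so copy results cover those alone. Over the settings run, named families kept direction and call in 1333 results, lost the call in 650 and reversed in 28, and named copies kept them in 731 and lost the call in 308, with none reversed. Where a value reversed and no construction is named, the cause was not tested.

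DESeq2 called 10 families for the TSA by A366 interaction, and 34 copies with Kdm3a, 19 with Kdm4d, 4 with TSA, 13 with RK-701, 9 with A366, 24 with TSA and RK-701, 44 with TSA and A366, 46 with TSA and UNC0638 and 2 and 14 for the interactions with RK-701 and A366, for which it also called 2 and 4 silencing genes. RLE factors gave 14 families with Kdm4d. Gene reads alone gave 28 families in LatA controls, 22 with Kdm4d, 30 with TSA and RK-701, 26 with TSA and A366 and 14 for the A366 interaction, and the ERV1 total difference reversed to 0.284. Factors over repeat families gave 26 families in LatA controls, 12 with Kdm3a, 1 with TSA, 7 with TSA and A366, 2 for the A366 interaction and 3 and 5 for TSA and UNC0638 against TSA and RK-701 or A366. They reversed MuRRS4-int and RMER5 in control SCNT (-0.0826 and -0.0791) and RMER5 with TSA and A366 (0.0581). The total was -2.87 per 1000 repeat reads and 0.0344 with control SCNT as the one control group.

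No filter gave 1 family with A366 and 0 silencing genes with TSA and A366, 2 for the RK-701 interaction and 4 for the A366 interaction. Sex chromosomes gave 2 families with RK-701 and reversed MuRRS4-int in control SCNT (-0.10). A fold change over 2 left 5 families in control SCNT, 6 in LatA controls, 2 with Kdm3a, 0 with RK-701, 6 with TSA and RK-701, 2 with TSA and A366, 4 with TSA and UNC0638, 4 between A366 and RK-701 and 1 each for UNC0638 against the others. A mean of 5 reads gave 5 copies with Kdm4d, 1 with RK-701, 3 with TSA and RK-701, 9 with TSA and A366 and 12 with TSA and UNC0638, and 10 reads in 2 libraries gave 11 with Kdm3a, 4 with Kdm4d, 1 with RK-701 and 3, 4 and 9 in the co-treatments. Adjusted p alone gave 10 silencing genes in control SCNT, 13 in LatA controls, 4 with Kdm3a, 6 with Kdm4d, 4 with RK-701 and 5, 3 and 6 in the co-treatments. The other untreated control as reference gave 12 families with Kdm3a, 3 with Kdm4d, 1 with TSA, 13 with RK-701, 7 with TSA and UNC0638 and 2 for the A366 interaction.

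A fit of the compared libraries alone, which has fewer residual degrees of freedom, gave 0 families with Kdm3a, with RK-701, in the 3 co-treatments and for the A366 interaction, 3 with Kdm4d, and 16 and 14 for TSA and UNC0638 against TSA and RK-701 or A366. It gave 0 copies with Kdm3a, Kdm4d, RK-701, A366 and the 3 co-treatments. Same-numbered libraries deviated together in 2 of 55 group pairs, so the numbers were not taken to pair libraries. With the replicate block, families were 4 with Kdm3a, 0 with RK-701 and 1 for the A366 interaction. Block copies were 50 in control SCNT, 48 in LatA controls, 11 with Kdm3a, 3 with Kdm4d, 1 with RK-701 and 3, 6 and 14 in the co-treatments, and block silencing genes 1 in control SCNT, 1 with TSA and RK-701 and 0 with TSA and A366 and for both interactions. The other block counts stayed within 1.5 times.

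Copies outside genes gave 0 families with RK-701, 5 with TSA and RK-701 and 7 with TSA and A366, and reversed RLTR30D_MM in control SCNT (-0.80), in LatA controls (-1.33) and between TSA and UNC0638 and TSA and A366 (-0.15), and RLTR1B-int with RK-701 (0.39). Without the copy of most reads in each family, 10 families were called in LatA controls, 2 with Kdm3a, 2 with RK-701, 1 with A366, 2 with TSA and UNC0638 and 5 between the latter and TSA and A366. The values that reversed then came from the other copies alone. In control SCNT they were 0.0243 for MuRRS-int, -0.66 for RLTR30D_MM, 0.27 for RLTR30E_MM and 0.10 for RMER2, and in LatA controls -0.90 for RLTR30D_MM. With Kdm3a they were -1.52 for LTRIS6, 0.0413 for RLTR1B-int and -0.0577 for RLTR30E_MM, with Kdm4d -0.53 for RLTR30E_MM and with RK-701 0.41 for RLTR1B-int. With TSA and RK-701 they were -1.37 for LTRIS6, -0.051 for RLTR30D_MM and -0.17 for RLTR30E_MM, with TSA and A366 -0.37 for LTRIS6 and -0.16 for RLTR30E_MM, and with TSA and UNC0638 -0.24 for MLTR14 and -0.0083 for RLTR14. RLTR30E_MM was -0.30 for the A366 interaction and 0.42 between A366 and RK-701, and RLTR30D_MM -0.0097 between TSA and UNC0638 and TSA and A366.

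Leaving out 1 library gave 11 to 18 families in LatA controls, 1 to 8 with Kdm3a, 0 to 6 with Kdm4d, 0 to 2 with TSA, 0 to 9 with RK-701, 0 to 3 with A366, 1 to 16, 4 to 18 and 4 to 9 in the co-treatments with RK-701, A366 and UNC0638, 0 to 17 for the A366 interaction, 5 to 11 between A366 and RK-701, and 0 to 5 for TSA and UNC0638 against either other co-treatment. Copies ran from 43 to 78 in control SCNT, 3 to 12 with Kdm3a, 1 to 3 with Kdm4d, 0 to 2 with TSA, 0 to 22 with RK-701, 1 to 9 with A366, 1 to 17, 1 to 22 and 8 to 26 in the co-treatments, and 0 to 1 and 0 to 14 for the RK-701 and A366 interactions. Silencing genes ran from 1 to 3 in control SCNT, 2 to 6 in LatA controls, 0 to 2 with Kdm3a, 0 to 4 with Kdm4d, 0 to 5 with RK-701, 0 to 1 with A366, 0 to 4, 0 to 3 and 2 to 7 in the co-treatments, and 0 to 2 and 0 to 4 for the interactions. The ERV1 total difference ran from -0.0973 to 0.0380. A lone library left in a group was assumed to vary like the others.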
